A study of Mus musculus with 2 samples.

Results

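Beta-defensin genes of the adult mouse testis are described here, each in every cell class of a wild type and an Igf2bp1 knockout library. The members are all genes whose symbol in the deposited gene list is Defb followed by a number, 42 of 31053 genes. The study profiled testes of mice aged 8 months by droplet single-cell RNA sequencing on the 10x Genomics platform, with 1 wild type library and 1 library from the knockout, which the sample label gives as Igf2bp1 KO and the series text as a conditional knockout (cKO). Neither the Cre line nor the deleted exons is given in the sources used here, and whether a library holds tissue of 1 or more animals cannot be read from the text without doubt. Each genotype is therefore 1 replicate, no p-value is given, and every interval below is a 95% interval that covers counting error only.

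Beta-defensins are small, secreted, positively charged peptides folded by disulfide bonds, best known for damaging microbial membranes and for attracting immune cells through chemokine receptors. In the male tract the epithelium of the epididymis makes many of them, and some coat the sperm surface. In the testis itself, Sertoli cells nurse the germ cells inside the tubules, Leydig cells between the tubules make androgens, and germ cells pass from spermatogonia through meiotic spermatocytes to round and elongating spermatids.

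A UMI is 1 counted transcript molecule, and CPM is the number of UMIs of a gene per 1e6 UMIs of a class. UMIs count molecules at the transcript end, so levels of different genes are set side by side without a length term. Classes were named from marker genes and are called Sertoli-like, Leydig-like and so on. The Defb genes took no part in the clustering. The wild type library held 17362 barcodes and 121257944 UMIs and the knockout 17968 and 98033324. Most barcodes stayed unnamed, 68.5% of those kept in wild type and 78.5% in the knockout. The median depth of unnamed barcodes was 1123 and 1745 UMIs, but not all were shallow. Knockout clusters 3, 9, 10 and 16, also unnamed, had medians of 6647, 6427.5, 10181 and 6464.5 UMIs. Knockout Leydig-like cells had 6079. Sertoli-like cells, though named, were shallow, with medians of 1318.5 (wild type) and 1742 (knockout). Barcodes of the lowest decile by depth in each library served to read RNA outside cells, and whether some held cells was not tested. They had medians of 968 and 1301 UMIs, and a gene's level in them is called its free RNA level. Defb36 stood there at 21.6 CPM (15.1 to 29.9) in wild type and 50.7 CPM (41.9 to 60.8) in the knockout. It was lower in the shallow unnamed clusters 0 of wild type (9.13 CPM, 7.09 to 11.6) and 1 of the knockout (29.0 CPM, 25.7 to 32.6). In cluster 2 (14.8 and 42.0 CPM) the intervals overlapped. Germ classes were deeper, so a CPM below free RNA there does not tell which UMIs came from outside cells. As a check of the labels, Igf2bp1 had 72 UMIs in 133 wild type spermatogonia-like cells (68.7 CPM, 53.8 to 86.5) and 16 UMIs in 95 knockout cells (22.5 CPM, 12.9 to 36.5).

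Promoter sequence was at hand in RefSeq (GRCm38.p6) for 29 of the 42 members, as the 250 bases before the start of the RefSeq gene. The stretches printed are those of the Sertoli-like members Defb36 and Defb45, the spermatid members Defb33 and Defb15, and Defb8, whose UMIs came almost all from the knockout library. Each reads 5′ to 3′ on the gene's own strand, and capitals mark a searched motif on either strand. The RefSeq start of Defb45 lies inside the longer GENCODE gene whose coordinates are given further on, so its window does too. The motifs were the CRE core TGACG, the SF1 core AAGGTCA, the GATA site AGATAA and the TATA box TATAAA.
Defb36, chr2:152604077-152604326, plus strand: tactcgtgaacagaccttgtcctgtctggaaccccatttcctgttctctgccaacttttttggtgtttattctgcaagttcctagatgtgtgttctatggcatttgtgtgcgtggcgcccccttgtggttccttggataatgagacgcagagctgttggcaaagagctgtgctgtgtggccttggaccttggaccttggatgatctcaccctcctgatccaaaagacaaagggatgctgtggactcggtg
Defb45, chr2:152596486-152596735, minus strand: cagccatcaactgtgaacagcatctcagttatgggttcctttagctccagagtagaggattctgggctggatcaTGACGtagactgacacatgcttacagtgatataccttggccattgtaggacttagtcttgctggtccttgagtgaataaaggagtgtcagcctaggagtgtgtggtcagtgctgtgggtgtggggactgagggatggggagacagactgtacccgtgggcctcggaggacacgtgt
Defb33, chr8:20892417-20892666, plus strand: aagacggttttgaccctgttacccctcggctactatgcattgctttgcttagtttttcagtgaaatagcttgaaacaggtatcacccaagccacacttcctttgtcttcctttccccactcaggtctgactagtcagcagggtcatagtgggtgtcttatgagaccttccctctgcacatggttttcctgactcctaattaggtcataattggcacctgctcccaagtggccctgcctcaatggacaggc
Defb15, chr8:21932711-21932960, minus strand: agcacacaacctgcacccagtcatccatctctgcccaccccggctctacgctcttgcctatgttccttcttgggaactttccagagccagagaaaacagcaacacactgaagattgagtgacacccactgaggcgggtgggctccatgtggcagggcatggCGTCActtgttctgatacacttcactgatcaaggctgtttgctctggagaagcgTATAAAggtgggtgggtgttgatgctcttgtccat
Defb8, chr8:19447607-19447856, minus strand: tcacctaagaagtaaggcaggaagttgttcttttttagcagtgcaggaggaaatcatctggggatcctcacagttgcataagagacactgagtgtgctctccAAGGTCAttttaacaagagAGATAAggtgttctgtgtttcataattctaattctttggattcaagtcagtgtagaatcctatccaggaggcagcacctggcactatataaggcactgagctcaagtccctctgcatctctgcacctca
Among 32851 promoter windows of the same length, the CRE core was in 17.8%, the SF1 core in 4.08%, the GATA site in 9.99% and the TATA box in 12.4%. The CRE core stood in the windows of Defb45 and Defb15, where in Defb15 the letters lie on the opposite strand. A TATA box stood in that of Defb15, and the SF1 core and the GATA site in that of Defb8. The windows of Defb36 and Defb33 held none of the 4. A match describes letters only.

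The members lie in 4 groups on the genome (GENCODE M21 on GRCm38, the mm10 build): 2 on chromosome 1, 11 within 164 kb of chromosome 2, 24 over 2974 kb of chromosome 8 and 5 within 80.6 kb of chromosome 14. The 3 members with most UMIs in Sertoli-like cells are neighbours on chromosome 2 with no other coding gene between them. Defb19 spans 152576086 to 152580312 on the minus strand, Defb45 152593191 to 152599399 on the minus strand and Defb36 152604327 to 152612729 on the plus strand. Defb21, 1.14 kb beside Defb19 at 152572744 to 152574944 on the plus strand, was instead highest in elongating-spermatid-like cells. The strongest spermatid member, Defb33, lies alone on chromosome 8 at 20892669 to 20897723, with 879 kb to the nearer neighbouring member.

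Of the 42 members, 12 had no UMI in either library, 14 had 1 to 16 UMIs and 16 had at least 20 UMIs over both libraries. The members at 0 were Defb2, Defb3, Defb5, Defb6, Defb7, Defb10, Defb12, Defb34, Defb35, Defb38, Defb46 and Defb50, where 3 counts would have been 0.0249 CPM in wild type and 0.0308 CPM in the knockout. The 14 sparse members together held 36 wild type and 53 knockout UMIs. At least 3 UMIs were found for 18 members in the wild type library and 23 in that of the knockout, with 17 in both. Beta-defensin UMIs were concentrated in few genes. Defb19 took 46.5% of the 31228 member UMIs in wild type and 74.7% of 86949 in the knockout. Defb33 took 31.8% and 12.8%, Defb36 6.49% and 7.13%, and Defb30 6.01% and 1.63%.

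**Figure D1:**
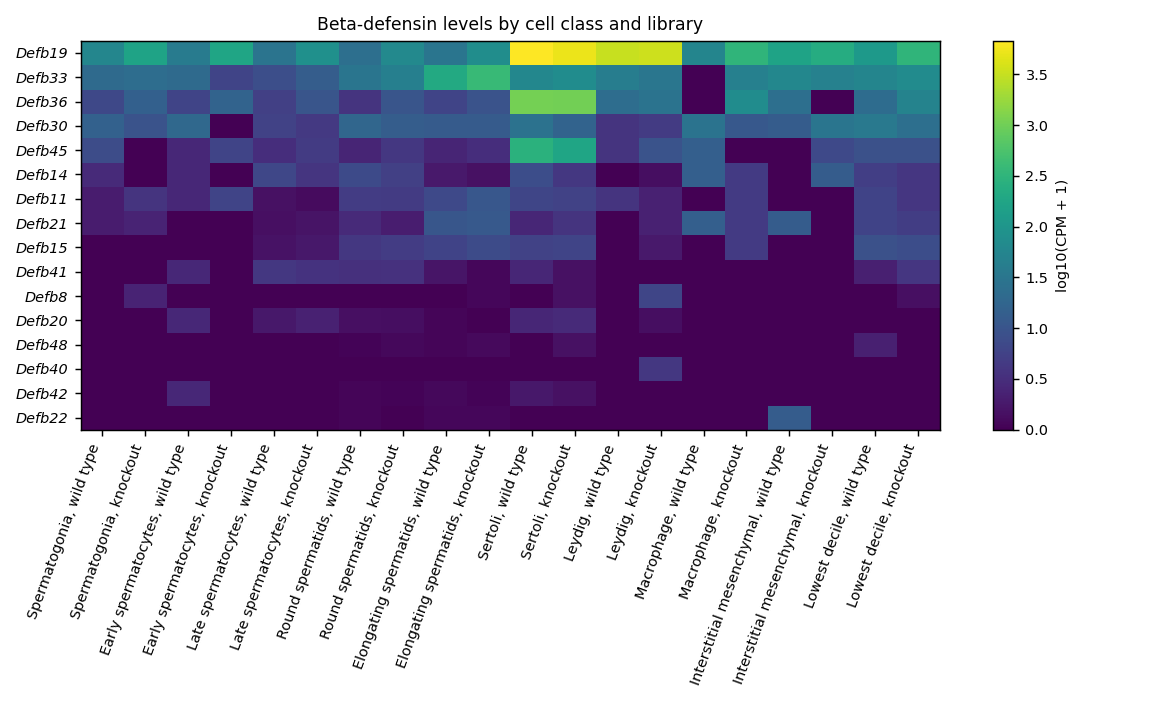
Level of each beta-defensin gene with at least 20 UMIs (rows) in named cell classes of both libraries (columns), as log10(CPM + 1) in colour, beside the lowest decile of barcodes. Defb19, Defb36 and Defb45 are brightest in Sertoli-like cells, Defb19 also in Leydig-like cells, and Defb33 in elongating-spermatid-like cells.

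The main Sertoli-like defensin was Defb19, also known as a transcript of testis somatic cells. Its level was 6774 CPM (6633 to 6918) in 752 wild type Sertoli-like cells and 5194 CPM (5098 to 5291) in 947 knockout cells, against free RNA levels of 115 and 316 CPM. A UMI was found in 711 of the wild type cells (94.5%) and 925 of the knockout cells (97.7%), at medians of 6 and 7 UMIs per cell. Both intervals lie far above every germ class. With each cell thinned to 1000 UMIs, which left out 31 wild type cells, the shares were 92.7% and 93.4%.

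Defb36 was the next Sertoli-like member. It stood at 1087 CPM (1031 to 1146) in wild type and 1040 CPM (997 to 1084) in the knockout, with intervals that overlap, against free RNA levels of 21.6 and 50.7 CPM. It was seen in 440 wild type cells (58.5%) and 648 knockout cells (68.4%), and in 48.8% and 51.0% after thinning. Defb45 was lower, at 281 CPM (253 to 312) in wild type and 180 CPM (163 to 199) in the knockout, against 7.80 CPM of free RNA in each library. It was seen in 183 wild type cells (24.3%) and 241 knockout cells (25.4%), and thinning gave 17.8% and 15.5%. Sertoli-like cells held 76.6% and 83.8% of the Defb36 UMIs of all named cells, and 67.1% and 75.8% of those of Defb45. Named cells held 1831 of 2027 kept Defb36 UMIs in wild type and 2677 of 6199 in the knockout. For Defb45 they held 541 of 632 and 513 of 1265.

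The Sertoli markers that gave the class its name summed to 7290 CPM in wild type and 5925 CPM in the knockout, against free RNA levels of 163 and 365 CPM. Of all genes with at least 100 UMIs in named cells, the profile most like that of Defb19 was that of Amhr2, the receptor for anti-Müllerian hormone (Pearson r = 0.998 over 10 points, 5 classes in 2 libraries), followed by Clu (0.997), S100a1, Tst and Rhox8. The profile nearest to Defb36 was again Amhr2 (0.997), then Etd, Comtd1, Defb19 (0.993) and Cldn11, a tight junction protein of Sertoli cells. Defb45 was nearest to Ramp1 (0.991), then Sept6, Tmem114, Hebp1 and Slc25a18. Amhr2, Clu and Rhox8 are themselves among the markers that named the Sertoli-like class. The 5 classes were spermatogonia-like, late-spermatocyte-like, round-spermatid-like, elongating-spermatid-like and Sertoli-like cells. Sertoli-like cells were the only somatic class among them, so a high r is common to genes that stand out there. Leydig-like cells, 46 in wild type, were left out, so these values do not cover them. There Defb19 was at 3272 and 3465 CPM and Defb36 at 22.1 and 27.6 CPM. The points share libraries, depth and free RNA, so these values are descriptions.

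Leydig-like cells carried Defb19 without its neighbours. Defb19 reached 3272 CPM (3089 to 3464) in 46 wild type cells and 3465 CPM (3392 to 3539) in 381 knockout cells, in 45 and 377 of them, at medians of 26 and 20 UMIs per cell. Defb36 was at 22.1 and 27.6 CPM there, near or below its free RNA level, and Defb45 at 2.76 and 8.51 CPM. The wild type class is under the 50 cells asked for a ratio between libraries. Leydig-like cells held 9.26% of the Defb19 UMIs of named wild type cells and 37.9% of those of the knockout, and Sertoli-like cells 68.2% and 49.6%. Named cells held 12814 of the 14535 kept Defb19 UMIs in wild type, but 22578 of 64970 in the knockout. An unnamed knockout cluster led by Insl3 (cluster 3) held 29300, so the shares do not show where most knockout Defb19 UMIs lay.

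The proportion of the 2 genes separates the classes. For every 100 UMIs of Defb19 there were 16 UMIs of Defb36 (15.2 to 17.0) in wild type Sertoli-like cells and 20.02 (19.1 to 21.0) in knockout ones. In Leydig-like cells there were 0.674 (0.290 to 1.33) and 0.796 (0.617 to 1.01). Free RNA had 18.8 and 16.1. Germ classes lay near free RNA, at 14.8 and 11.2 in late-spermatocyte-like cells, 11.2 and 14.4 in round-spermatid-like cells and 17.4 and 11.8 in elongating-spermatid-like cells. Sertoli markers were not absent from Leydig-like cells, at a summed 1671 and 1617 CPM. Clu made up 1227 and 1177 CPM of that sum, Amhr2 110 and 95.7 CPM, while Cst12 was at 22.1 and 27.6 CPM, Wt1 at 0 and 0.811 CPM, and Fshr at 0 in both.

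**Figure D2:**
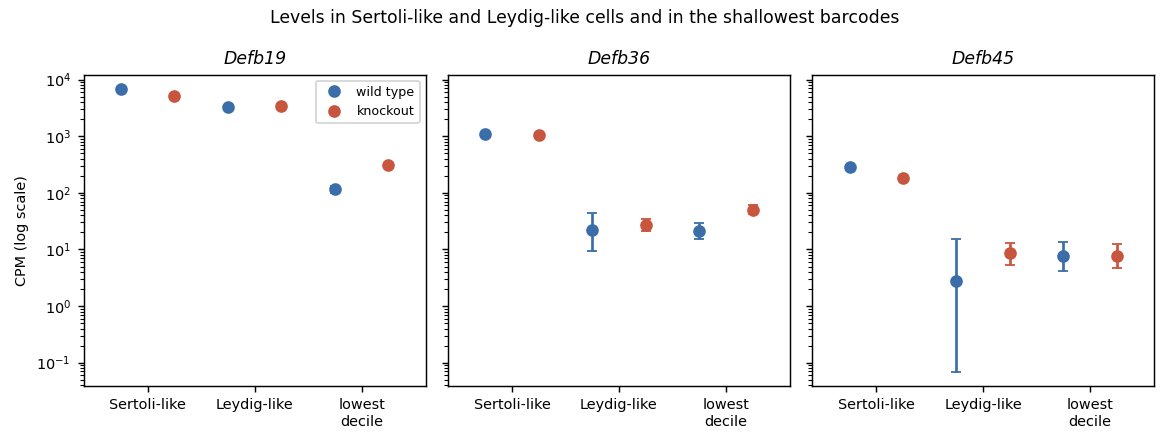
Level in CPM (log axis) of Defb19, Defb36 and Defb45 in Sertoli-like and Leydig-like cells and in free RNA, for each library, with 95% counting intervals. Defb19 is high in both cell classes, while Defb36 in Leydig-like cells lies at 22.1 and 27.6 CPM, beside free RNA at 21.6 and 50.7 CPM.

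**Figure D3:**
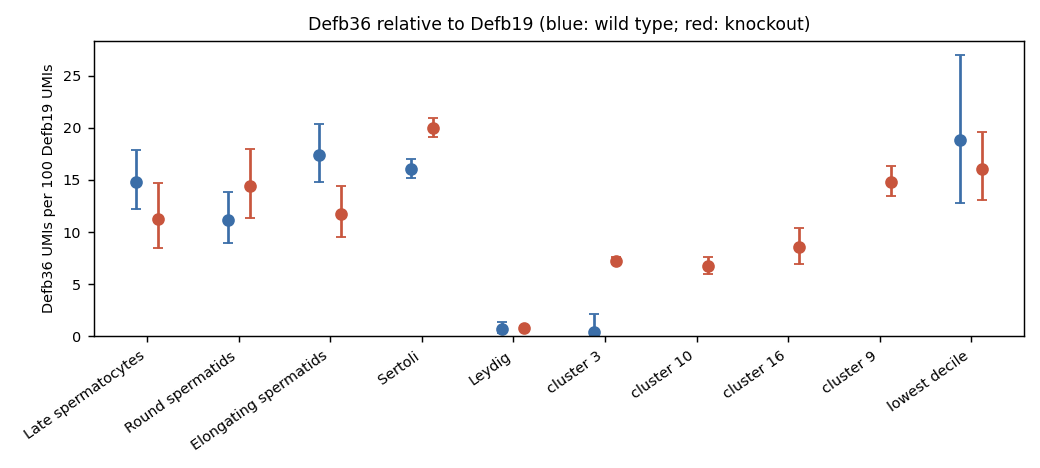
UMIs of Defb36 per 100 UMIs of Defb19 in 5 classes, 4 unnamed clusters and free RNA, by library, with 95% counting intervals. Leydig-like cells stand below 1 in both libraries (0.674 and 0.796), while the unnamed clusters 3, 10, 16 and 9 of the knockout lie at 7.25, 6.76, 8.54 and 14.8.

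Other members were sparse in Leydig-like cells. Defb33 had 15 UMIs in wild type (41.4 CPM) and 77 in the knockout (31.2 CPM), below its free RNA levels of 54.6 and 69.4 CPM. Defb8 had 13 UMIs in 9 of the knockout cells (5.27 CPM) and none in wild type, where 3 counts would have been 8.27 CPM, so a difference was not detectable at this depth. Over all kept barcodes Defb8 had 1 UMI in wild type and 110 in the knockout. Of these, 80 came from 61 knockout barcodes of an unnamed cluster led by Insl3, the Leydig hormone, with 3877 knockout and 23 wild type barcodes. Its transcript is 84.1% identical to that of Defb7, a member at 0, over 290 bases. Defb40 with 1 and 25 UMIs, Defb37 with 1 and 13, and Defb39 with 0 and 4 had the same slant, and these 3 genes lie in a row on chromosome 8 together with Defb38, a member at 0. The library difference in these totals goes with the number of Leydig-like and Insl3-led barcodes, and its part in the result was not tested.

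Defb48 had 15 wild type and 14 knockout UMIs, Defb42, known from the epididymis, 15 and 11, and Defb22, a coat peptide of epididymal sperm, 14 and 9. These 3 members reached 20 UMIs only over both libraries together, and no class had enough of them for a ratio.

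Germ cells had their own defensins, and Defb33 was the main one. Its level was 7.20 CPM (6.27 to 8.23) in wild type late-spermatocyte-like cells, 29.3 CPM (27.5 to 31.2) in round-spermatid-like cells and 214 CPM (210 to 219) in elongating-spermatid-like cells. The knockout levels were 12.7 (10.1 to 15.7), 44.0 (40.0 to 48.4) and 377 CPM (367 to 388). The order of these 3 classes was the same in both libraries, with no overlap between neighbouring intervals. Free RNA stood at 54.6 and 69.4 CPM, above the late-spermatocyte and round-spermatid classes as a whole. Spermatogonia-like cells, at 20.04 and 22.5 CPM, lay below it as well. In elongating-spermatid-like cells Defb33 was seen in 1582 of 1868 cells of wild type (84.7%) and 798 of 878 of the knockout (90.9%), with up to 47 and 53 UMIs in a cell, and in 20.4% and 29.0% after thinning. In Sertoli-like cells the thinned shares were 5.55% and 6.12%, at 58.1 and 72.8 CPM, beside the free RNA level. Elongating-spermatid-like cells held 85.0% and 84.2% of the Defb33 UMIs of named cells. Named cells held 9122 of 9942 kept Defb33 UMIs in wild type and 5603 of 11145 in the knockout.

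Within these classes the clusters differed. The smaller round-spermatid-like cluster, led by Actrt3 and Prss51 (cluster 13, 300 wild type and 87 knockout cells), had Defb33 at 85.8 CPM (80.1 to 91.7) and 205 CPM (183 to 227). The larger one (cluster 8) had it at 6.99 and 10.8 CPM, no higher than late-spermatocyte-like cells. In the larger elongating-spermatid-like cluster (cluster 4, 1682 and 855 cells) Defb33 stood at 247 CPM (241 to 253) and 388 CPM (376 to 399). The smaller cluster, with deeper cells (cluster 18, 186 and 23 cells), had 101 CPM (94.2 to 108) and 159 CPM (128 to 196). The genes most like Defb33 by profile were 1700034G24Rik (0.991), the cystatin-like Cstl1, Arhgef6, Tnp2, which packs spermatid DNA (0.987), and Gm34662. Tnp2 is among the markers that named the elongating-spermatid-like class.

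Among named clusters, Defb30 peaked earlier than Defb33. It reached 47.6 CPM in wild type and 46.7 CPM in the knockout in the round-spermatid-like cluster led by Actrt3. The other round-spermatid-like cluster had 5.12 and 5.33 CPM. Elongating-spermatid-like cells were below the peak, at 12.6 and 11.9 CPM in the larger cluster. The unnamed cluster 7, described further on, was higher, at 147 and 81.4 CPM. Free RNA had 34.8 and 23.8 CPM of Defb30, which is above every germ cluster named except the one led by Actrt3. Its gene, on chromosome 14 at 63034087 to 63049960, overlaps Defb42 on the other strand by 2970 bases, and the sources used here do not say whether counting used strand.

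Defb21, Defb11 and Defb15 were faint spermatid members. In the larger elongating-spermatid-like cluster Defb21 stood at 10.9 CPM in wild type and 11.2 CPM in the knockout, against free RNA levels of 4.80 and 3.90 CPM, and in late-spermatocyte-like cells at 0.437 and 0.618 CPM. Elongating-spermatid-like cells held 81.0% and 82.3% of its UMIs in named cells, which had 431 of 494 and 164 of 368 kept UMIs. Defb11 was spread more evenly, at 6.53 and 6.58 CPM in the round-spermatid-like cluster led by Actrt3 and 6.64 and 10.3 CPM in the larger elongating-spermatid-like cluster, with 0.505 and 0.309 CPM in late-spermatocyte-like cells. Defb15 had 6.02 and 4.19 CPM, then 5.39 and 6.61 CPM in those clusters. Free RNA had 4.80 and 3.03 CPM of Defb11, but 7.80 and 6.94 CPM of Defb15, so the CPM of Defb15 lay below it in both clusters. Late-spermatocyte-like cells, also deeper than free RNA barcodes, had 0.538 and 0.772 CPM of Defb15. The part of free RNA in these levels was not tested. Defb11 and Defb15 lie beside each other on chromosome 8, 23.4 kb apart. Their transcripts match those of silent relatives, Defb11 with Defb10 at 90.3% identity over 299 bases and Defb15 with Defb34 at 91.1% over 247 bases. Defb15 also lies inside the antisense gene Gm36879, so both levels are uncertain.

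Defb14, Defb41 and Defb20 were higher before the elongating-spermatid-like class, at levels close to free RNA or below 4 CPM. Defb14, an epithelial antimicrobial peptide that acts on the receptor Ccr6, was at 5.62 CPM in wild type and 2.93 CPM in the knockout in late-spermatocyte-like cells. It was at 7.23 and 4.19 CPM in the round-spermatid-like cluster led by Actrt3. In the larger elongating-spermatid-like cluster it was at 0.571 and 0.502 CPM, and free RNA had 4.2 and 3.03 CPM. Defb41, otherwise known from the epididymis, was at 3.20 and 2.62 CPM in late-spermatocyte-like cells and 0.357 and 0 CPM in the larger elongating-spermatid-like cluster. Defb20 stood below both, at 0.774 and 1.24 CPM in late-spermatocyte-like cells. Free RNA carried Defb41 at 1.20 and 3.03 CPM. All 3 were lower in the larger elongating-spermatid-like cluster, where Defb33 and Defb21 were highest. Epididymal tissue was looked for with 12 markers, which summed to 4.34 and 4.32 CPM over all kept barcodes. Lcn8, Lcn5 and Lcn10 were at 0 in both libraries. Over the same barcodes Defb14 was at 4.34 and 3.49 CPM and Defb41 at 1.92 and 1.82 CPM. The part of epididymal RNA in these levels was not tested.

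**Figure D4:**
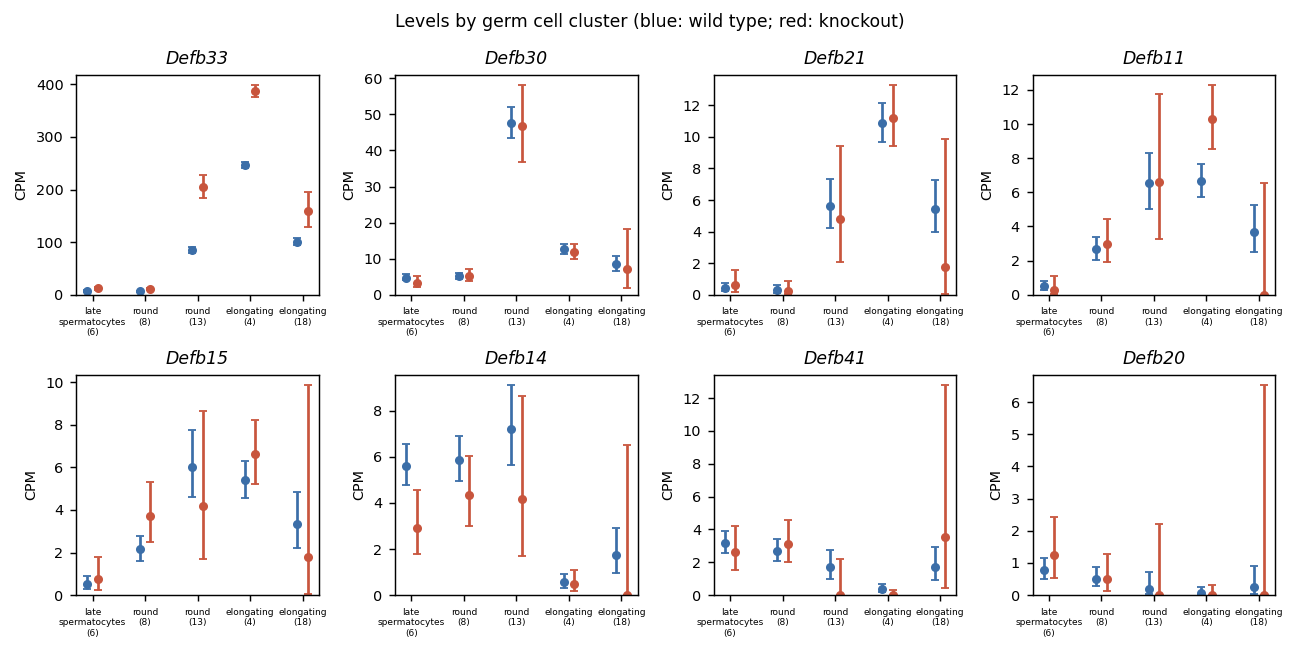
Level in CPM of the germ cell members in the late-spermatocyte-like, round-spermatid-like and elongating-spermatid-like clusters of both libraries, numbered in brackets, with 95% counting intervals. Defb33 is highest in the larger elongating-spermatid-like cluster (247 and 388 CPM), Defb30 in the round-spermatid-like cluster led by Actrt3 (47.6 and 46.7 CPM), and Defb14 falls to 0.571 and 0.502 CPM.

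Defb19 lay below free RNA in every germ class. In spermatogonia-like cells its level was 49.96% of the free RNA level in wild type and 52.1% in the knockout, and in early-spermatocyte-like cells, of which the knockout had 36, it was 33.9% and 55.5%. The level was 25.2% of the free RNA level in wild type late-spermatocyte-like cells and 26.2% in knockout ones. It was 21.3% and 20.1% in round-spermatid-like and 25.8% and 23.2% in elongating-spermatid-like cells. The summed Sertoli markers behaved alike, at 24.1% and 21.4% in late-spermatocyte-like cells, 16.2% and 18.4% in round-spermatid-like cells, and 18.2% in elongating-spermatid-like cells of each library. The UMIs were uneven over cells, and 5% of the cells held 65.7% and 40.6% of the late-spermatocyte-like Defb19 UMIs, with 103 in a single wild type cell. The part of free RNA in the germ class levels of Defb19, Defb36 and Defb45 was not tested. In knockout macrophage-like cells Defb19 was at 319 CPM and in B-lymphocyte-like cells at 345 CPM, beside 316 CPM of free RNA.

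Between the libraries, a gene was called higher or lower in the knockout where the ratio of CPM was at least 1.5-fold with an interval that left out 1, among genes with at least 20 UMIs in the class over both libraries. In Sertoli-like cells 5 members could be tested, 0 were called higher and 2 lower, where 7.43% of all 10357 genes tested were called higher and 2.5% lower. Defb45 fell by 0.64 on the log2 scale (interval −0.85 to −0.43). Leaving the second, smaller Sertoli-like cluster aside, its ratio was −0.44 (−0.66 to −0.22), short of the call. Defb30, below its free RNA level in this class at 26.3 and 15.3 CPM, had a ratio of −0.78 (−1.52 to −0.05). Its call was lost with the stricter barcode filter (−0.80, −1.78 to 0.19), with each cell named by its own markers (−0.64, −1.29 to 0.05) and without the smaller Sertoli-like cluster (−0.71, −1.48 to 0.05). Defb19 had −0.38 (−0.42 to −0.34) and Defb36 −0.06 (−0.16 to 0.03), both short of the call. The summed Sertoli markers were at 7290 and 5925 CPM in the same cells, and their part in the result was not tested. The tested members had a median of −0.38, against 0.10 over all genes tested. These ratios hang on which barcodes are taken as Sertoli-like. With the mixed, unnamed cluster 9 counted as Sertoli-like, Defb19 was at −1.44, Defb36 at −1.21 and Defb45 at −1.82, all called lower. That cluster had 14 wild type and 652 knockout barcodes, and Defb19 in the latter was at 609 CPM. In it 8 of 16 Sertoli markers were raised over free RNA. With finer clusters the 3 ratios were −0.10, 0.051 and −0.26, none called.

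In elongating-spermatid-like cells 10 members were tested, with 4 called higher and 1 lower, where 3.93% of 14056 genes were called higher and 18.8% lower. Defb33 was 0.81 higher on the log2 scale (0.76 to 0.87). It was also higher within each cluster, by 0.65 (0.59 to 0.70) in the larger and 0.66 (0.33 to 0.97) in the smaller. Defb11 was higher by 0.72 (0.39 to 1.04) in the class and by 0.63 (0.29 to 0.97) in the larger cluster. Defb41 was called lower at −2.06 (−5.18 to −0.05), on 24 wild type and 2 knockout UMIs. Defb21 (0.16), Defb15 (0.38) and Defb30 (−0.01) passed no call. The member median was 0.45 against −0.19 for all genes. With the 2 clusters weighted equally, Defb33 stayed higher at 0.65, while Defb11 (−0.01), Defb36 (−0.30) and Defb41 (0.76) changed sign. The smaller cluster had 23 knockout cells. Naming each cell by its own markers left Defb11 at 0.41, and TMM scaling left Defb41 at −1.88 with an interval that held 0, both without a call.

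Defb19 and Defb36 made up the other 2 calls, at 1.31 and 0.75. Their free RNA level, and that of Sertoli markers, was higher in the knockout library too, and its part in the result was not tested. With free RNA subtracted, Defb36 was at 0.04 and lost its call. The call of Defb19 was not among those changed by the subtraction. Nor were the calls of Defb19, Defb36 and Defb45 in round-spermatid-like and late-spermatocyte-like cells, given below. In late-spermatocyte-like cells of wild type and knockout, 5% of the cells held 65.7% and 40.6% of the Defb19 UMIs. For Defb36 they held 94.5% and 60.0%. Whether the subtraction reaches UMIs held by so few cells was not tested.

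Round-spermatid-like cells gave 4 of 10 members called higher and 0 lower, where 4.15% of 15158 genes were called higher and 1.94% lower. The spermatid member among them was Defb33 at 0.59 (0.42 to 0.75), just past the call, which 5 alternatives ended with values from 0.50 to 0.58. Within the cluster led by Actrt3 its ratio was 1.25 (1.07 to 1.44), and within the other 0.62 (0.24 to 1.0). The other calls were Defb19 (1.38), Defb36 (1.74) and Defb45 (1.13), at levels below free RNA. Defb45 was at 0.43 without a call when the clusters were weighted equally. Its ratio was 1.80 in the larger cluster and −1.07 (−4.19 to 0.93) in the cluster led by Actrt3, on 25 wild type and 2 knockout UMIs. Defb30 had −0.47 (−0.76 to −0.18) in the class, with 47.6 and 46.7 CPM in the named cluster where it is highest. That cluster made up 300 of 1202 wild type and 87 of 470 knockout cells of the class.

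Late-spermatocyte-like cells gave 4 of 9 members higher and 1 lower, where 5.38% of 14305 genes were called higher and 3.07% lower. Defb14 was lower at −0.94 (−1.71 to −0.25), and at −0.51 without a call when each cell was named by its own markers. Defb33 (0.81, 0.43 to 1.19), Defb19 (1.52, 1.36 to 1.67), Defb36 (1.12) and Defb45 (0.81, 0.06 to 1.5; 0.72 and no call with median-of-ratios scaling) were higher, all at levels below free RNA in both libraries. In spermatogonia-like cells 3 members were tested, with 1 higher and 0 lower, where 4.05% of 9268 genes were called higher and 3.7% lower. The call was Defb19, with 60 UMIs (57.2 CPM) in wild type and 117 UMIs (165 CPM) in the knockout, again below free RNA.

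**Figure D5:**
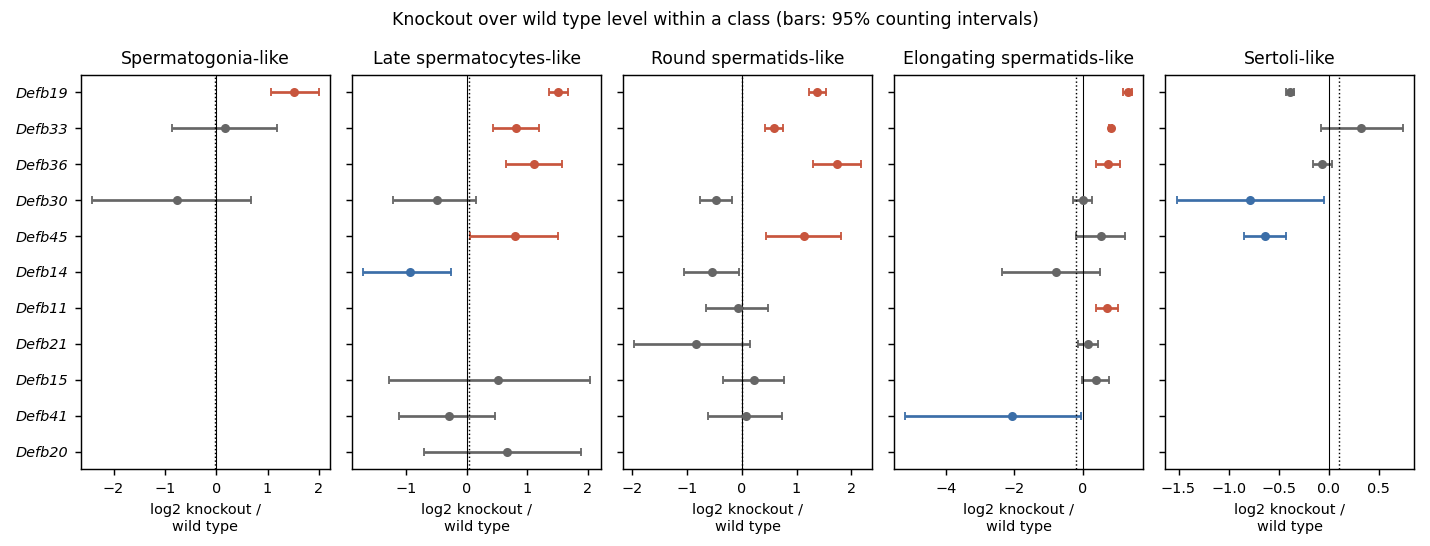
Knockout over wild type log2 ratio of each tested member in 5 cell classes, with 95% counting intervals. Defb33 lies above 0 in the 3 later germ classes (0.81, 0.59 and 0.81) and Defb45 below 0 in Sertoli-like cells (−0.64).

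Other secreted antimicrobial genes, a list of 35, were tested in the same way. In spermatogonia-like cells 3 of 11 were higher and 0 lower, beside 4.05% and 3.7% of all genes. In late-spermatocyte-like cells 3 of 12 were higher and 0 lower, beside 5.38% and 3.07%, and in round-spermatid-like cells 3 of 12 and 0, beside 4.15% and 1.94%. In elongating-spermatid-like cells 3 of 12 were higher and 3 lower, beside 3.93% and 18.8%, and in Sertoli-like cells 4 of 16 higher and 1 lower, beside 7.43% and 2.5%. Lcn2, an iron-binding lipocalin, was higher in all 5 classes, from 11.6 to 447 CPM in Sertoli-like cells and from 2.59 to 86.8 CPM in late-spermatocyte-like cells. Lcn2 was also among the leading genes of the Leydig-like and Insl3-led clusters, which lie mostly in the knockout, and their part in the result was not tested. Lyz2, the macrophage lysozyme, was higher in the same 5 classes, with 0 and 36 UMIs in Sertoli-like cells. Wfdc15a (−1.06), Wfdc3 (−0.82) and Bpi (−0.72) were lower in elongating-spermatid-like cells. Wfdc18, of the whey acidic protein family, had 0 and 187 UMIs in Sertoli-like cells. It was among the leading genes of the smaller Sertoli-like cluster, which had 7 wild type and 51 knockout cells. The part of that cluster in the result was not tested. Of 8 receptors and partners described for beta-defensins, at most 2 had the UMIs for a test in a class, and the only call was Ccr2, a chemokine receptor, higher in elongating-spermatid-like cells on 9 and 12 UMIs.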

How the data were processed

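The values deposited are raw counts of UMIs for each gene in each barcode, per the file headers and their whole numbers. Cell Ranger 2.2.0, STAR and mm10 are named in the submitters' processing notes. The members and lists were chosen with earlier results of these data known.

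Barcodes needed 500 UMIs, 250 genes and at most 20% mitochondrial UMIs, which removed 360 wild type and 265 knockout barcodes. This took Defb19 from 17465 to 14535 UMIs in wild type and from 67962 to 64970 in the knockout. Defb36 went from 2456 to 2027 and from 6650 to 6199, and Defb45 from 829 to 632 and from 1416 to 1265. Defb33 went from 9962 to 9942 and from 11174 to 11145. The part of this loss in the Sertoli-like levels and ratios was not tested. Doublets were not removed, and 103 barcodes occur in both libraries. Both libraries were clustered together (scanpy 1.11.5, leidenalg 0.10.2, igraph 0.11.9) on 2000 variable genes without Defb genes, 30 components and 15 neighbours, at resolution 1. Clusters were named from marker lists. Shallow clusters, and somatic clusters with high spermatid RNA, stayed unnamed, by limits set after seeing the data. Raw UMIs were summed per class, with exact Poisson, Clopper-Pearson and conditional binomial intervals (scipy 1.17.1). The code was tested on simulated data. Members with at least 20 UMIs are described singly. For those with at least 100 in named cells, the 5 most alike genes were found by Pearson r of log2(CPM + 1). Alternatives used edgeR 4.0.16 and other filters, clusterings and free RNA treatments. Transcripts were compared with blastn 2.17.0.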

Additional observations from a re-analysis of the deposited data

Results flagged for a closer look

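Defb45 moved in opposite directions in the class ratios. It was 0.81 higher on the log2 scale in late-spermatocyte-like cells and had −0.64 in Sertoli-like cells of the knockout, and the difference between these was not tested. Late-spermatocyte-like levels of Defb45 lie below free RNA. Each call was lost under some alternatives. The late-spermatocyte-like call was lost with median-of-ratios scaling (0.72). The Sertoli-like call was lost with the stricter barcode filter (−0.53) and at resolution 2 (−0.26).

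Barcodes without a class name also carried members above the free RNA level of their library. In the knockout Defb19 stood at 861 CPM in the cluster led by Insl3 (cluster 3), 960 CPM in cluster 10 and 605 CPM in cluster 16. It was at 609 CPM in the mixed cluster 9 and 431 CPM in the macrophage-led cluster 14, against 316 CPM of free RNA. In wild type it was at 164 CPM in the shallow cluster 1, against 115 CPM. Defb45 stood at 31.8 CPM in cluster 16 and 13.6 CPM in cluster 3 of the knockout, against 7.80 CPM. Defb33 was at 96.7 CPM in cluster 3 and 108 CPM in cluster 9, against 69.4 CPM, and Defb36 at 90.4 CPM in cluster 9, against 50.7 CPM.

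The unnamed cluster 7, with leading genes shared with the round-spermatid-like cluster led by Actrt3 (Gm8251 and 1700025N23Rik) but median depths of 1735 and 1973 UMIs, had Defb30 at 147 CPM in wild type and 81.4 CPM in the knockout, against 34.8 and 23.8 CPM of free RNA. No other cluster had a higher Defb30 level in either library. Defb14 was at 11.3 CPM there in the knockout, against 3.03 CPM.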

How the results depend on the processing

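No paired analysis was possible because each genotype has 1 library. Detection counts of 18 and 23 members held under the stricter barcode filter, and a minimum of 10 UMIs gave 14 and 16. Of 315 recomputed ratios, 272 stayed within counting error, 40 moved and 3 reversed. In elongating-spermatid-like cells, TMM and median-of-ratios scaling shifted all genes by 0.17 and 0.10 on the log2 scale. Defb33 there was 0.99 with TMM, 0.92 with median-of-ratios, 0.67 with each cell named by its own markers, 0.87 with free RNA subtracted and 0.65 with clusters weighted equally, where Defb41 (0.76), Defb36 (−0.30) and Defb11 (−0.0061) reversed. In Sertoli-like cells Defb19 was −0.48 with TMM and with median-of-ratios, −0.43 with the stricter filter, −0.10 at resolution 2, −1.03 with cells named singly and −1.44 with mixed clusters named. Defb45 was −0.26, −1.55 and −1.82, and Defb36 0.051, −0.79 and −1.21, under the last 3. Defb45 at −0.53 lost its call under the stricter filter. The cause of these changes was not tested. Thinning to 1000 UMIs changed 75 of 77 shares beyond their interval. At resolution 2 no cluster was named for spermatogonia or interstitial mesenchymal cells, so they have no value there.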
